A study of Homo sapiens with 12 samples.

Results

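JQ1 responses were compared between wild-type and MAPKAPK2-knockout A375 cells as a difference of differences. For each gene, the JQ1-against-DMSO change of wild-type cells was subtracted from that of knockout cells on the log2 scale. All 12 libraries of the series entered this comparison, 3 in each of 4 groups: wild-type DMSO, wild-type JQ1, knockout DMSO and knockout JQ1. A375 is an established human malignant melanoma line, JQ1 was given at 500 nM, and every culture was kept for 48 h. The knockout was made with CRISPR/Cas9; the labels do not say whether it is 1 clone or a pool, nor whether replicates are separate cultures, so p-values measure the spread between these samples. Of 56609 gene symbols, 21698 had enough counts to be tested, and 74 lists of pathways and gene families placed 2579 tested genes in programmes.

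BET proteins bind acetylated histones and help release RNA polymerase II into productive elongation. JQ1 occupies their acetyl-lysine pocket, so genes with strong BET-dependent enhancers commonly fall when it is given. MAPKAPK2 encodes MK2, a kinase activated by p38 under stress, which stabilises mRNAs with AU-rich elements such as those of inflammatory cytokines and phosphorylates the heat shock protein HSPB1. The series was set up to ask how loss of MAPKAPK2 lets cells resist BET inhibitors. The difference of responses shows which genes and programmes the drug moved unequally in the 2 genotypes.

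Libraries held 25316900 to 34594300 estimated counts (median 29497750) and detected 31252 to 34075 genes. Knockout JQ1 replicate 3 stood apart. Its counts differed from those of its replicates with a chi-square per degree of freedom of 26.1 and 27.5, against 3.35 to 7.64 for the other replicate pairs. It also had the highest share of counts in 4 abundant noncoding RNAs (14.6%). Values without it are given beside some of the list medians that it moved, and not beside all of them. MAPKAPK2 was at 87.9 to 120 CPM (counts scaled to the library's depth) in the wild-type libraries and at 11.1 to 15.7 CPM in the knockout libraries. Melanoma markers were present for SOX10 (389 to 687 CPM) and MITF (25.6 to 44.1 CPM), but the pigment genes were near 0, with PMEL at 0.246 to 1.45 CPM and TYR at 0 in 5 libraries.

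The JQ1 response was broad in both genotypes and differed between them for few single genes. With edgeR's quasi-likelihood test and a Benjamini-Hochberg adjusted p of 0.05, JQ1 changed 33.1% of tested genes in wild type and 34.4% in knockout. The difference of responses passed for 29 genes, 0.134% of those tested. It was more positive in knockout for 7 genes (0.0323%) and more negative for 22 (0.101%). At an unadjusted p of 0.05, 8.37% of genes differed, 3.46% more positive and 4.91% more negative, and these shares are the background for the counts of list members below. Over all tested genes the difference was above 0 for 48.9%. The SE of a single gene's difference had a median of 0.21 on the log2 scale.

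Genes that JQ1 lowered tended to be lowered further in knockout cells, while genes that it raised showed no such tilt. The average JQ1 effect of both genotypes, which weighs them equally, passed for 9921 genes (45.7%). Of the 5067 genes that fell, 63.9% had the larger fall in knockout, with a median excess of 0.08 on the log2 scale. Of the 4854 genes that rose, 50.1% had the larger rise in knockout. By size this share was 46.69% for rises under 0.5, 56.25% for rises of 0.5 to 1 and 56.48% for rises of at least 1. The median excess in the last 2 bins was 0.03 and 0.04. Among the 1191 genes that fell by at least 1 on the log2 scale, 65.7% fell further in knockout with a median excess of 0.18; their median fall was 1.43 in wild type and 1.63 in knockout. For falling genes the share stayed between 59.2% and 67.8% in 18 alternative analyses. For all rising genes together it was lowest, 43.3%, without wild-type JQ1 replicate 3. It was highest, 56.3%, without knockout JQ1 replicate 2, so no direction held. The size bins of rising genes were not run in these analyses.

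For most programmes the median difference of responses was small. The median JQ1 response of a list had the same sign in both genotypes for 65 of 74 lists. Pearson's r between wild-type and knockout medians was 0.91 over the 74 lists; this is a description, since the lists share libraries and some genes. The median difference of responses lay within 0.1 of the median of all genes (-0.01) for 63 lists and within 0.05 for 41. Without knockout JQ1 replicate 3 the median of some lists not described below changed. It went from 0.04 to -0.10 for collagens and from 0.04 to -0.10 for immediate-early and AP-1 genes. For Notch genes it went from -0.07 to -0.18, and for histone acetylation and methylation enzymes from -0.03 to -0.13. A list was counted as responding unequally when it met 4 conditions. Its median difference lay at least 0.15 from that of all genes, over at least 5 tested members. Its library scores differed in the same direction by more than 2 SE, and the sign held with each library left out. The score of a library is the mean log2 CPM of the list's tested members relative to wild-type DMSO, and its SE comes from the spread of the replicates. By this rule 4 lists responded more strongly in knockout and 1 more weakly. No list met the rule with an opposite response.

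**Figure D1:**
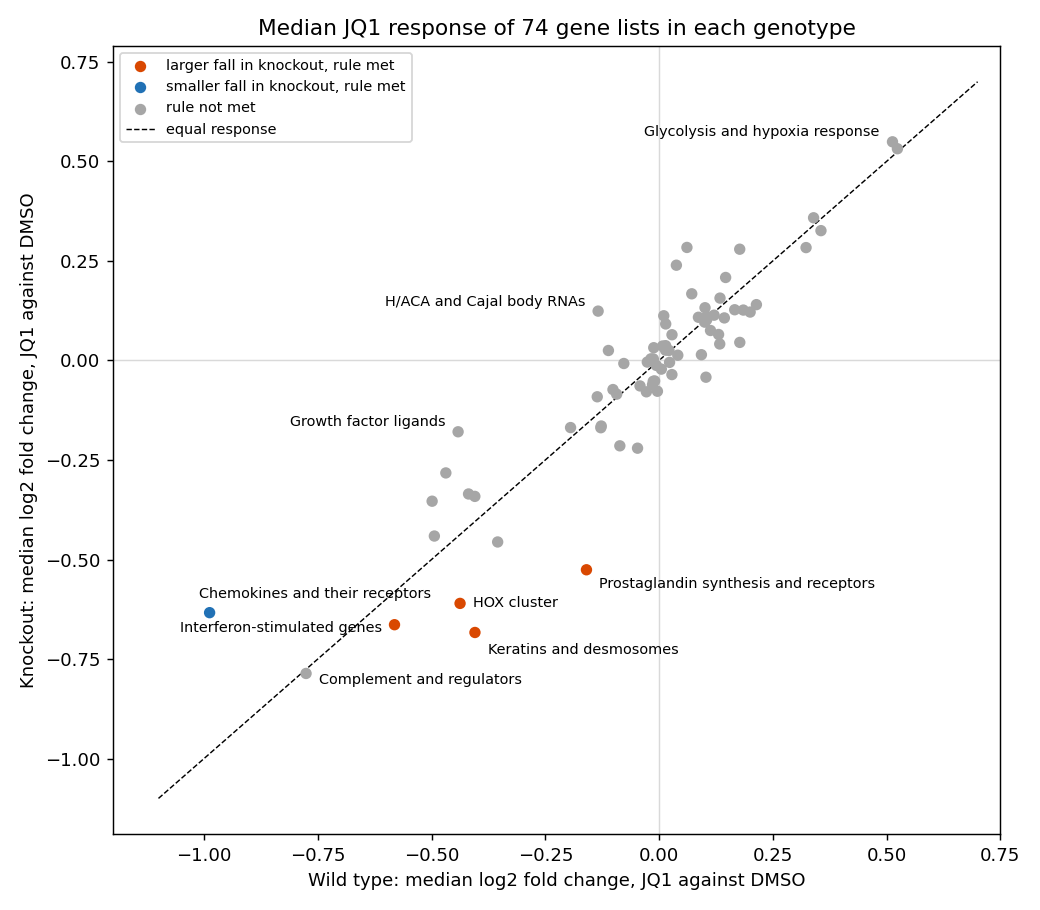
Each point is a gene list, placed at the median log2 fold change of its tested members with JQ1 in wild type (x axis) and in knockout (y axis); the dashed line marks equal responses. Most of the 74 lists lie near the line, and 4 lists that JQ1 lowered lie below it.

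Interferon-stimulated genes had a more negative median response in knockout, with library scores that spread little within a group. These genes encode antiviral effectors and sensors and are switched on by interferon. Many carry the interferon-stimulated response element in their promoters, whose core was searched here as GAAA, any 2 bases and GAAA on both strands of 300-base promoters around the annotated start. RefSeq promoters (GRCh38.p14) matched 36 of the 47 tested members, and 23 of them (63.9%) held the core, against 2.91% of the 11947 promoters matched to tested genes. The median difference of responses was -0.20 for the 23 members with the core and -0.12 for the 13 without it; a match describes letters in this window and not a bound site. Members with the core also had positive differences, among them EIF2AK2 (0.15) and ISG20 (0.13). SAMD9L, with a difference of -0.63, had no core in its promoter. The promoters of 4 members with differences of -0.53 to -0.86 are shown as examples that hold the core, in capitals on either strand. They lie at chr19:17405581-17405880 (minus strand) for BST2, at chr21:41420308-41420607 (plus) for MX1, at chr1:78649539-78649838 (plus) for IFI44 and at chr2:162318635-162318934 (minus) for IFIH1. In BST2 a pair of overlapping cores makes 1 longer run, and IFIH1 holds cores on both strands.
BST2: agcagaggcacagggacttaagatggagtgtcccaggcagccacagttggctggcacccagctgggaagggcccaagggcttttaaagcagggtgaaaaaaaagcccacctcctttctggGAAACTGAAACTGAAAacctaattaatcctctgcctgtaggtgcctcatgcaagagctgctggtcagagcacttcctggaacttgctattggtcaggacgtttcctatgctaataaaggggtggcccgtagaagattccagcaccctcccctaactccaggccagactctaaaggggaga
MX1: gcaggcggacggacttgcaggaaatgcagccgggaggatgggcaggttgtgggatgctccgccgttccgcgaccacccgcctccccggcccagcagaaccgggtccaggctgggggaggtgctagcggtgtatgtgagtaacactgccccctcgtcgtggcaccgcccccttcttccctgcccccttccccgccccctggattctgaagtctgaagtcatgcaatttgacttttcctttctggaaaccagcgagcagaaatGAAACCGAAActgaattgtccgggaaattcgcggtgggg
IFI44: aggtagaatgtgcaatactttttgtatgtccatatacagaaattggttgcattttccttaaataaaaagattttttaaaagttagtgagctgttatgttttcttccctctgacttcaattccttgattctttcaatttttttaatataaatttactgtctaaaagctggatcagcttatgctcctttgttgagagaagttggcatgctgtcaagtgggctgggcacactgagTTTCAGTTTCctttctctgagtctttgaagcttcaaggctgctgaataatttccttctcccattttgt
IFIH1: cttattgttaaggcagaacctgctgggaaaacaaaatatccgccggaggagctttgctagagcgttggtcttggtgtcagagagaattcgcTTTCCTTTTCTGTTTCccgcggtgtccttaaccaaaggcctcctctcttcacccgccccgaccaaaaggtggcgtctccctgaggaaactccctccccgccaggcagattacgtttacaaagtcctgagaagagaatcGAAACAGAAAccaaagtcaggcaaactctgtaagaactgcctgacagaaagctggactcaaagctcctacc

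At the adjusted threshold JQ1 changed 33.1% of all tested genes in wild type and 34.4% in knockout, in either direction. It lowered 29 of the 47 tested interferon-stimulated genes in wild type and 31 in knockout, and raised 8 and 6. The median response was -0.58 in wild type and -0.66 in knockout, and the median of the members' differences was -0.16. The difference was below 0 for 36 members and above 0 for 11. At an unadjusted p of 0.05 it was more negative for 10 members (21.3%, against 4.91% of all genes) and more positive for 0. No member passed the adjusted threshold for the difference in the edgeR test. Library scores were -0.59, -0.58 and -0.61 in wild-type JQ1 and -0.78, -0.77 and -0.75 in knockout JQ1. The JQ1 groups did not overlap, while the DMSO groups did: wild-type DMSO lay between -0.01 and 0.01 and knockout DMSO between -0.04 and 0.05. The difference of differences of the scores was -0.19 (SE 0.03, n = 3 per group). Among the 41 members with a JQ1 effect, 29 had the larger response in knockout. Of all genes with a JQ1 effect 57.2% did, and of those that fell 63.9%. For the 41 members the median excess was 0.17, against 0.08 for all genes that fell. It was 0.09 for genes that fell by 0.5 to 1 on the log2 scale and 0.18 for those that fell by at least 1. When genes under a mean of 5 CPM were left out, the list had a median difference of -0.12. The list met the size rule narrowly, at -0.1504 from the median of all genes where 0.15 is asked. With a library left out this distance ran from -0.186 to -0.126, so the size was not reached in every such fit.

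The most negative differences in the list were those of IFITM1, BST2 and IFITM2. IFITM1, which blocks fusion of viruses with cell membranes, was at 3.10, 3.47 and 3.38 CPM in wild-type DMSO and 0.691, 0.668 and 0.828 CPM with JQ1. In knockout it was at 4.42, 3.67 and 4.32 CPM in DMSO and 0.343, 0.527 and 0.443 CPM with JQ1. Knockout libraries were thus the highest without the drug and the lowest with it, and the difference of responses was -1.06 (SE 0.27, adjusted p 0.227 by edgeR). Its neighbour IFITM2 differed by -0.71 (SE 0.25); the IFITM genes are close copies among which reads can be split. BST2, or tetherin, which holds budding virions on the cell surface, stood at 0.947 to 1.11 CPM in wild-type JQ1 and at 0.365 to 0.855 CPM in knockout JQ1, a difference of responses of -0.86 (SE 0.31).

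Members of the list that act as enzymes or sensors had differences of either sign. OAS2, which makes the 2-5A messenger that activates RNase L, was at 10.9, 10.3 and 11.8 CPM in wild-type DMSO and 1.95, 2.08 and 2.22 CPM in wild-type JQ1. In knockout it was at 7.37, 6.73 and 7.44 CPM in DMSO and at 0.876, 0.933 and 0.855 CPM with JQ1. The wild-type response was -2.4 and the knockout response -3.01 (difference -0.61, SE 0.18, adjusted p 0.304 by edgeR). MX1, a dynamin-like antiviral GTPase, went from 5.45 to 6.95 CPM to 2.51 to 3.23 CPM in wild type and from 6.46 to 7.47 CPM to 1.99 to 2.35 CPM in knockout. SAMD9L, an interferon-induced restriction factor, differed by -0.63 (SE 0.18). IFIH1, the RNA sensor MDA5, differed by -0.53, as did IFI44. SP100, a nuclear body protein, differed by -0.35 and MX2 by -0.24. CMPK2, a mitochondrial nucleotide kinase, had the most positive difference among the members, 0.77, and the ubiquitin ligase HERC6 (0.28), the RNA-sensing kinase EIF2AK2 (0.15) and the exonuclease ISG20 (0.13) were also above 0.

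**Figure D2:**
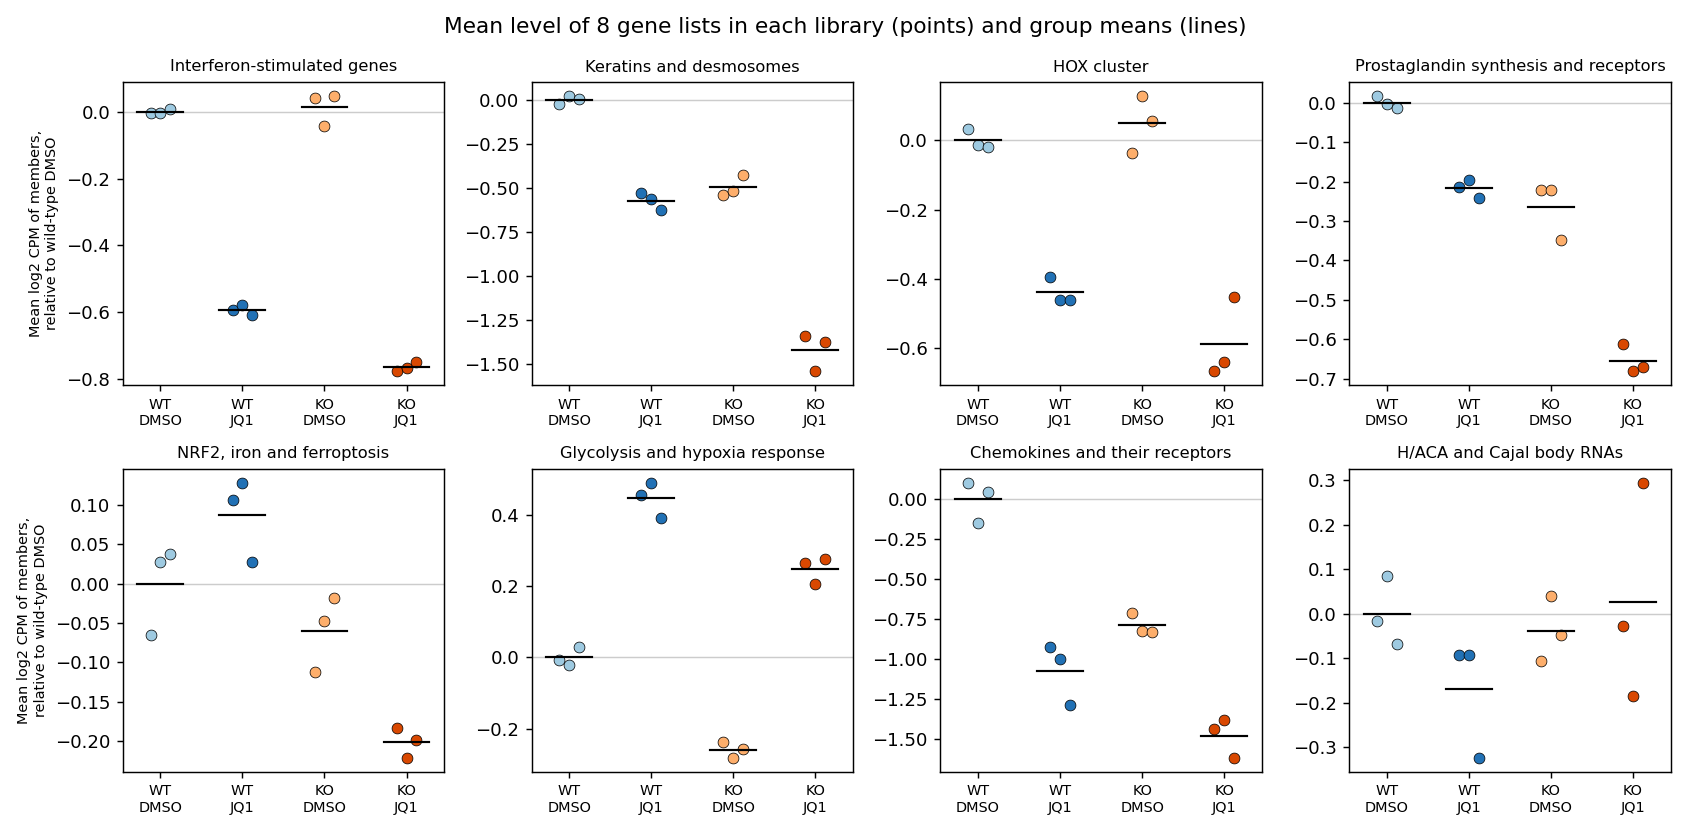
Library scores (mean log2 CPM of a list's tested members relative to the wild-type DMSO mean, y axis) for 8 lists, with 3 libraries per group as points and group means as lines. For interferon-stimulated genes the knockout JQ1 libraries (-0.78 to -0.75) lie below the wild-type JQ1 libraries (-0.61 to -0.58) although the DMSO groups overlap; for H/ACA and Cajal body RNAs 1 knockout JQ1 library (0.29) lies far above the other 2.

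Keratins and desmosome genes had the most negative median difference of all lists. Keratins form the intermediate filaments of epithelia, and desmosomes anchor those filaments at cell contacts; melanoma cells express few of them. Of 38 listed genes 23 could be tested, with a median response of -0.40 in wild type and -0.68 in knockout and a median difference of -0.25. The difference was below 0 for 20 members and above 0 for 3; 3 (13%, against 4.91%) were more negative at an unadjusted p of 0.05, and KRT80 passed the adjusted threshold. Library scores were -0.53, -0.56 and -0.63 in wild-type JQ1, -0.54, -0.52 and -0.43 in knockout DMSO and -1.34, -1.54 and -1.37 in knockout JQ1. Knockout scores lay below wild type in DMSO and were the lowest of all groups with JQ1, and the difference of differences was -0.35 (SE 0.08, n = 3 per group). Among the 17 members with a JQ1 effect, 13 had the larger response in knockout. Of all genes with a JQ1 effect 57.2% did, and of those that fell 63.9%. Of 3 keratinocyte markers, KRT1 was at 0 in all 12 libraries and only KRT14 exceeded 1 CPM; their summed level was 1.49 to 2.09 CPM in wild-type DMSO, up to 0.879 CPM in wild-type JQ1, 1.02 to 1.51 CPM in knockout DMSO and up to 0.317 CPM in knockout JQ1, and their part in the result was not tested.

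KRT80, a type II keratin, gave the firmest value of the list. It was at 26.7, 27.4 and 28.1 CPM in wild-type DMSO, 12.8, 11.2 and 11.5 CPM in wild-type JQ1, 14.3, 14 and 15.2 CPM in knockout DMSO and 2.93, 3.53 and 3.07 CPM in knockout JQ1. Its response was -1.21 in wild type and -2.19 in knockout, a difference of -0.98 (SE 0.13, adjusted p 0.00838 by edgeR) that passed with each library left out. LAD1, the basement membrane anchoring protein ladinin, fell in both genotypes (-3.43 and -4.57; difference -1.14, SE 0.36, adjusted p 0.380), and in knockout JQ1 it was under 0.5 CPM. JUP, or plakoglobin, differed by -0.56 (SE 0.28), the desmosomal cadherin DSG2 by -0.25 (SE 0.12) and KRT14 by -1.21 (SE 0.62), none of them past the adjusted threshold. KRT81, a hair keratin, differed by -2.15 (SE 0.50, adjusted p 0.171); its near-identical copies make its count uncertain. The tight junction gene OCLN had the most positive difference, 0.54.

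The HOX cluster, whose homeobox transcription factors record body position, had a negative median response in both genotypes and a more negative one in knockout. Of all tested genes, JQ1 changed 33.1% in wild type and 34.4% in knockout, in either direction. In the HOX list it lowered 19 of 35 tested members in wild type and 27 in knockout, and raised 3 and 0. The median response was -0.44 in wild type and -0.61 in knockout, with a median difference of -0.20; 30 members were below 0 and 5 above. At an unadjusted p of 0.05, 3 members (8.57%, against 4.91%) were more negative and 0 more positive. Library scores were -0.40, -0.46 and -0.46 in wild-type JQ1 and -0.67, -0.64 and -0.45 in knockout JQ1. Knockout JQ1 replicate 3 overlapped the wild-type JQ1 libraries; the difference of differences was -0.20 (SE 0.09, n = 3 per group), and the list's median difference was -0.27 without that library. It was -0.13 without knockout JQ1 replicate 1, -0.14 without knockout DMSO replicate 2, -0.14 without wild-type JQ1 replicate 2 and -0.14 with at least 5 CPM, each short of the size of 0.15 that the rule asks.

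No single HOX member passed the adjusted threshold for the difference. HOXC10, active in caudal and limb regions, was at 17.1, 15.2 and 15.2 CPM in wild-type DMSO and at 13.9, 13.5 and 13.9 CPM with JQ1. In knockout it was at 15.7, 17.9 and 18.6 CPM in DMSO and at 11.8, 11.2 and 12.5 CPM with JQ1, a difference of responses of -0.35 (SE 0.12, adjusted p 0.448 by edgeR). The knockout JQ1 libraries lay below all others. HOXB13 differed by -0.33 (SE 0.15), HOXA5 by -0.20 (SE 0.11) and HOXA4 by -0.71 (SE 0.36). HOXD1 and HOXD11 had larger fitted differences (-1.57 and -1.79) at levels under 0.6 CPM. HOX clusters hold antisense transcripts, and whether the counting used the strand is not given in the sources used here.

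Prostaglandin synthesis and receptor genes also had a more negative median response in knockout, and a synthase had the smallest p. Of 16 tested members, JQ1 lowered 5 in wild type and 7 in knockout, beside 33.1% and 34.4% of all genes changed in either direction. It raised 5 members in each genotype. The median response was -0.16 in wild type and -0.53 in knockout, the median difference was -0.17, and 12 members were below 0 against 4 above. At an unadjusted p of 0.05, 1 member (6.25%, against 4.91%) was more negative and 1 (6.25%, against 3.46%) more positive, which is near the background. Scores were -0.21, -0.20 and -0.24 in wild-type JQ1, -0.22, -0.22 and -0.35 in knockout DMSO and -0.61, -0.68 and -0.67 in knockout JQ1 (difference of differences -0.17, SE 0.05, n = 3 per group). Without knockout JQ1 replicate 3 the median difference was -0.13.

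PTGES, the inducible synthase that makes prostaglandin E2, was at 33.8, 37.6 and 35.3 CPM in wild-type DMSO and at 5.90, 7.05 and 4.47 CPM with JQ1. In knockout it was at 24.7, 26.8 and 27 CPM in DMSO and at 2.02, 2.39 and 2.18 CPM with JQ1. The groups did not overlap, and the difference of responses was -0.95 (SE 0.19, adjusted p 0.0867 by edgeR). PTGS1, the cyclooxygenase COX-1, differed by -0.58 (SE 0.27), from a response of -1.79 in wild type and -2.37 in knockout. ABCC4, which exports prostaglandins, differed by -0.16 and the thromboxane receptor TBXA2R by -0.70 (SE 0.45). Members with the opposite sign were PTGES3, a heat shock protein co-chaperone also called p23 (0.28, SE 0.09, adjusted p 0.391), and HPGD, which degrades prostaglandins (0.86, SE 0.45, at under 1.4 CPM).

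Chemokines and their receptors were the list with a less negative median response in knockout, but the value rests on genes near the detection limit. Only 12 of 31 members could be tested, with a median response of -0.99 in wild type and -0.63 in knockout and a median difference of 0.25. JQ1 lowered 7 members in wild type and 4 in knockout, beside 33.1% and 34.4% of all genes changed in either direction. The difference was above 0 for 7 members and below 0 for 5, with 1 member (8.33%) past an unadjusted p of 0.05 in each direction. Scores were -0.93, -1 and -1.29 in wild-type JQ1, already -0.71, -0.82 and -0.83 in knockout DMSO, and -1.44, -1.38 and -1.62 in knockout JQ1 (difference of differences 0.38, SE 0.16, n = 3 per group). These scores include CCL2, which had 0 to 3 counts in each knockout library, with and without JQ1. Whether the list would meet the rule without CCL2 was not tested. The median difference was 0.04 without knockout JQ1 replicate 1, 0.05 with no filter on low counts, and -0.41 among members with a mean of at least 5 CPM, so the direction depended on the filter.

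CXCL8, the neutrophil attractant interleukin 8 and a target of MK2 through its AU-rich element, went the other way from the list. It was at 30.0, 29.5 and 33.2 CPM in wild-type DMSO, 12.8, 13.7 and 14.5 CPM in wild-type JQ1, 8.79, 7.38 and 8.46 CPM in knockout DMSO and 2.32, 1.99 and 1.27 CPM in knockout JQ1. Its response was -1.18 in wild type and -2.16 in knockout (difference -0.98, SE 0.20, adjusted p 0.0972 by edgeR). CCL2, the monocyte attractant, had 44, 28 and 34 counts in wild-type DMSO and 5, 0 and 1 in wild-type JQ1. It had 2, 0 and 1 counts in knockout DMSO and 0, 1 and 3 in knockout JQ1, so no fold is given in knockout. CXCL2 (0.88, SE 0.43), the decoy receptor ACKR2 (0.90, SE 0.45), CCL5 (0.60, SE 0.43) and CX3CL1 (0.41, SE 0.32) were above 0 at levels under 2.5 CPM.

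**Figure D3:**
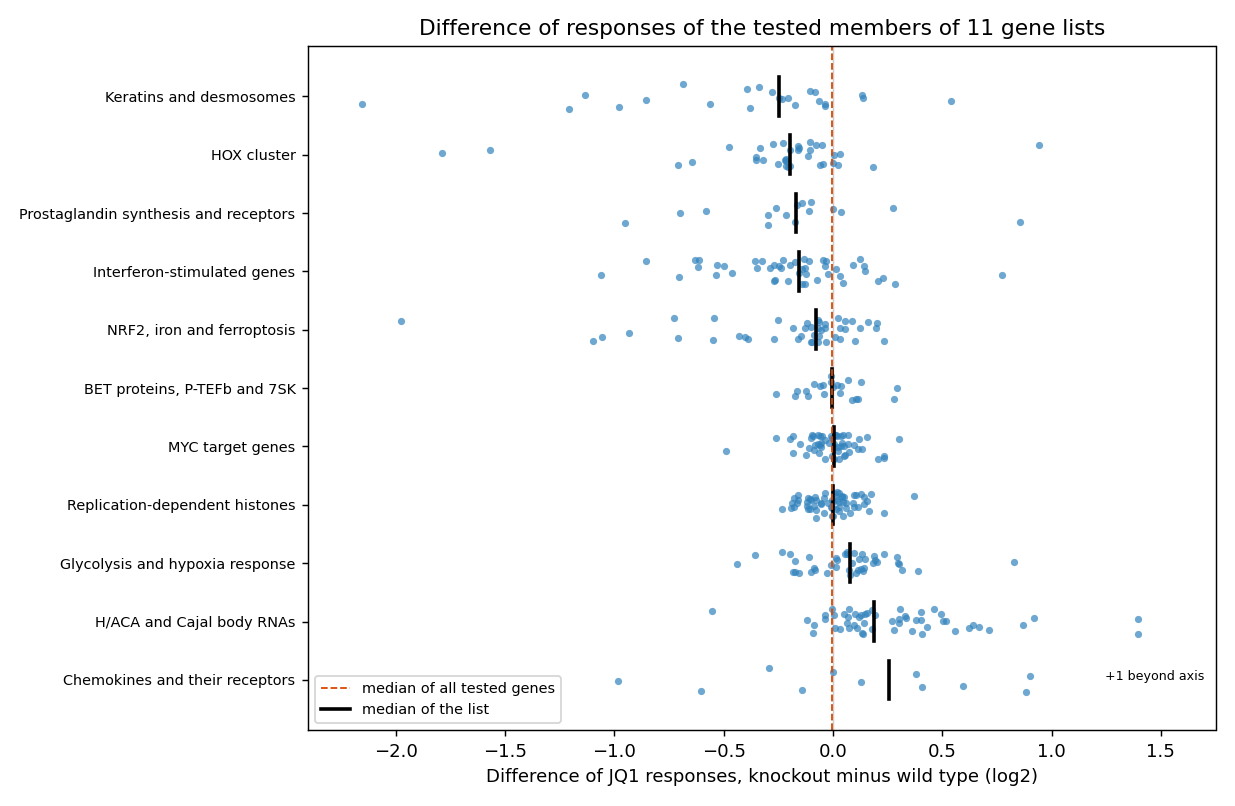
Each point is a tested member of a list, placed at its difference of JQ1 responses (knockout minus wild type, log2, x axis); black bars are list medians and the dashed line the median of all tested genes. Interferon-stimulated, keratin, HOX and prostaglandin lists lie to the left, BET, MYC target and histone lists centre on the dashed line, and 1 chemokine (CCL2) lies beyond the axis.

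NRF2 targets with iron and ferroptosis genes moved apart between the genotypes by library score but did not meet the rule by their median. NRF2 drives antioxidant genes, and ferroptosis is a death by iron-dependent lipid oxidation. The median response was 0.19 in wild type and 0.13 in knockout, with a median difference of -0.08 over 44 tested members. The difference was below 0 for 31 and above 0 for 13; at an unadjusted p of 0.05, 9 (20.5%, against 4.91%) were more negative and 1 more positive. Scores were 0.11, 0.13 and 0.03 in wild-type JQ1 and -0.18, -0.22 and -0.20 in knockout JQ1. Knockout DMSO was between, at -0.11, -0.05 and -0.02. The JQ1 groups did not overlap, and the difference of differences was -0.23 (SE 0.05, n = 3 per group). The antioxidant response element core, searched as TGAC, any 3 bases and GC on both strands, was in 20.0% of 35 matched promoters of the list and in 14.7% of the 11947 promoters matched to tested genes.

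The members of this list with the firmest differences act in cystine import and efflux. SLC7A11, the cystine-glutamate antiporter subunit that feeds glutathione synthesis, was at 73.6, 75.4 and 68.2 CPM in wild-type DMSO and 73.6, 70.8 and 70.3 CPM in knockout DMSO. With JQ1 it was at 22.7, 23.8 and 24.2 CPM in wild type and at 12.5, 14.7 and 9.62 CPM in knockout. The genotypes were alike without the drug and apart with it: the responses were -1.62 and -2.55 (difference -0.93, SE 0.15, adjusted p 0.0208 by edgeR; passed in 3 of 12 fits with a library left out, with a highest value of 0.103 without wild-type DMSO replicate 3). ABCC2, which exports glutathione conjugates, had responses of -1.28 and -1.99 (difference -0.71, SE 0.12, adjusted p 0.0323; passed in 2 of 12, highest 0.172 without wild-type DMSO replicate 2). SAT1, a polyamine acetyltransferase, rose in wild type from 33.2 to 34.8 CPM to 51.6 to 58.6 CPM; in knockout it was at 36.6 to 45.4 CPM in DMSO and 42.3 to 48.7 CPM with JQ1 (difference -0.54, SE 0.12, adjusted p 0.134). The ferritin light chain FTL rose in both genotypes (0.88 and 0.61; difference -0.27, SE 0.07). TKT, transketolase of the pentose phosphate pathway, had responses of 0.31 and -0.09. AKR1C2, a steroid-reducing enzyme with near-identical relatives, had a difference of -1.05 (SE 0.28).

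Other lists had small median differences. That of receptor tyrosine kinases was -0.13, or -0.19 without knockout JQ1 replicate 3. Their scores differed by 0.00 (SE 0.11), and at an unadjusted p of 0.05 2 members were more negative and 3 more positive, so no direction is given. MHC class II genes with CIITA had a median of 0.13, just under the size rule, and scores that differed by under 2 SE (0.11, SE 0.07). Without the drug they were higher in knockout, by a median of 0.32 on the log2 scale. In the MHC class II list 14 of 18 members were above 0; the master activator CIITA differed by 0.39 (SE 0.16), HLA-DOA by 0.32 (SE 0.13) and HLA-DRA by 0.19 (SE 0.08), with adjusted p of 0.537, 0.539 and 0.570. p53 targets had a median of -0.09 and scores that differed by -0.14 (SE 0.04): the CDK inhibitor CDKN1A rose by 1.36 in wild type and by 1.04 in knockout (difference -0.33, SE 0.09, adjusted p 0.243). SESN1, a stress-induced regulator of mTORC1, had responses of 0.45 and 0.06, and TNFRSF10C, a decoy receptor for TRAIL, of -1.56 and -2.60. Pol II elongation and termination factors were below 0 for 31 of 38 members, but by a median of only -0.07 (score difference -0.07, SE 0.01), with NELFE of the pausing complex at -0.32.

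Some lists with a positive median difference stayed within the size rule. Glycolysis and hypoxia genes mostly rose with JQ1 in both genotypes, from a lower start in knockout. At the adjusted threshold JQ1 raised 31 of 43 in wild type and 32 in knockout, and lowered 4 and 6. Of all genes 33.1% and 34.4% changed in either direction. The scores of the glycolysis and hypoxia list were 0.46, 0.49 and 0.39 in wild-type JQ1, -0.24, -0.28 and -0.26 in knockout DMSO and 0.26, 0.21 and 0.28 in knockout JQ1 (difference of differences 0.06, SE 0.04). The median difference was 0.08, and 9 members (20.9%, against 3.46%) were more positive at an unadjusted p of 0.05 and 3 (6.98%, against 4.91%) more negative. ENO2, an enolase, rose from 45.5 to 49.2 CPM to 90.2 to 94.9 CPM in wild type and from 32.0 to 34.3 CPM to 80.9 to 93.3 CPM in knockout (difference 0.39, SE 0.09, adjusted p 0.203). HK2, the hexokinase that traps glucose, had responses of -0.01 in wild type and 0.30 in knockout, and PDK1, which restrains pyruvate dehydrogenase, of -0.12 and 0.18. DNA replication genes were above 0 for 40 of 58 members with a median of 0.07; RRM2, the ribonucleotide reductase subunit, had responses of 0.28 and 0.61.

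Programmes close to the drug or to the deleted kinase had small median differences. The median difference was 0.00 for BET proteins with P-TEFb and 7SK components, for replication-dependent histones and for MYC target genes, and 0.02 for ERK feedback and output genes. Without knockout JQ1 replicate 3 it was -0.04 for the histones and -0.04 for the ERK genes. It was -0.07 for the p38 to MK2 kinase pathway, with 20 of 27 members below 0 and 6 (22.2%, against 4.91%) more negative at an unadjusted p of 0.05; the scores of that list differed by -0.10 (SE 0.04). For AU-rich element mRNAs the median was 0.04, with 16 of 30 members above 0, while their scores differed by 0.15 (SE 0.07). That score is a mean that includes CCL2, which had 28 to 44 counts in wild-type DMSO and 0 to 3 in each knockout library. The part of CCL2 in the score difference was not tested, so no direction is given for the list. The AU-rich element mRNAs were already lower in knockout without the drug, by a median of -0.39 on the log2 scale. G2 and mitosis genes (0.00), the proteasome (0.01), cytosolic ribosomal proteins (0.02) and nuclear oxidative phosphorylation (0.00) also lay close to the median of all genes, though for G2 and mitosis genes it was 0.06 without knockout JQ1 replicate 3. The median SE of 0.21 per gene limits which differences of single members could pass the test.

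Medians of opposite sign, each more than 0.1 from 0, were found for 1 list, and they rested on 1 library. H/ACA and Cajal body RNAs, which guide pseudouridylation of ribosomal and spliceosomal RNA, had a median response of -0.13 in wild type and 0.12 in knockout. The difference was above 0 for 47 of 54 tested members (median 0.19), and 5 (9.26%, against 3.46%) were more positive at an unadjusted p of 0.05. Scores were -0.09, -0.09 and -0.32 in wild-type JQ1 and -0.03, -0.19 and 0.29 in knockout JQ1, so the groups overlapped; the difference of differences was 0.24 (SE 0.17). Without knockout JQ1 replicate 3, the library with the most abundant-noncoding-RNA counts, the median difference was 0.07. SNORA63 was at 28.6, 28.2 and 22.6 CPM in wild-type DMSO, 23.0, 22.4 and 19.0 CPM in wild-type JQ1, 20.5, 20.6 and 21.7 CPM in knockout DMSO and 28.2, 27.3 and 28.1 CPM in knockout JQ1. It fell by 0.30 in wild type and rose by 0.41 in knockout (difference 0.71, SE 0.14, adjusted p 0.0627 by edgeR), with knockout JQ1 replicate 3 in step with its replicates. SNORA48 (0.46, SE 0.16) and SCARNA7 (0.43, SE 0.16) followed. These RNAs lie within introns of host genes, so their reads can overlap with those of the hosts. Abundant Pol III and spliceosomal RNAs had a median difference of 0.15, and of 0.00 without that library.

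Genes were also grouped into families by the shared leading letters of their symbols. Among 108 families of at least 15 tested genes, KRT (-0.19), MAP (-0.15), MYO (-0.13) and STX (-0.11) had the most negative median differences. In the KRT family the median response was -0.69 in wild type and -0.32 in knockout, with 2 members more negative and 2 more positive at an unadjusted p of 0.05, so it did not follow the list of keratins and desmosomes. The scores of the MYO family differed by 0.01 (SE 0.06). RNU (0.22), SNORD (0.21), SNORA (0.16) and SCARNA (0.15) had the most positive. The latter 4 are small noncoding RNAs with median levels of 1.00 to 8.20 CPM. Scores differed by 0.27 (SE 0.07) for SNORD, but by under 2 SE for RNU (0.18, SE 0.16), SNORA (0.20, SE 0.14) and SCARNA (0.19, SE 0.10). Family medians without knockout JQ1 replicate 3 are not given. That library moved the median difference of the H/ACA and Cajal body list, which was 0.19 with it and 0.07 without it. In the MAP family, which holds MAP kinases and microtubule-associated proteins, 30 of 45 members were below 0; at an unadjusted p of 0.05, 7 were more negative and 1 more positive, where all genes had shares of 4.91% and 3.46%.

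Of the 29 genes whose responses differed at the adjusted threshold, 17 had a negative response in both genotypes and the larger one in knockout. Another 3 rose less in knockout, 2 had a positive response in wild type and a negative one in knockout, 1 fell less and 6 had a negative fitted response in wild type and a positive one in knockout. Only 13 of the 29 belonged to a list. With each library left out in turn, FST, PCDH15, MFAP2, STRA6, KRT80 and CLCN4 passed in all 12 fits, and C1R, a complement protease, passed in 0. Without knockout JQ1 replicate 3, 28 of the 29 passed and the total rose to 88; without wild-type JQ1 replicate 1, or without knockout DMSO replicate 3, 8 genes passed in all.

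**Figure D4:**
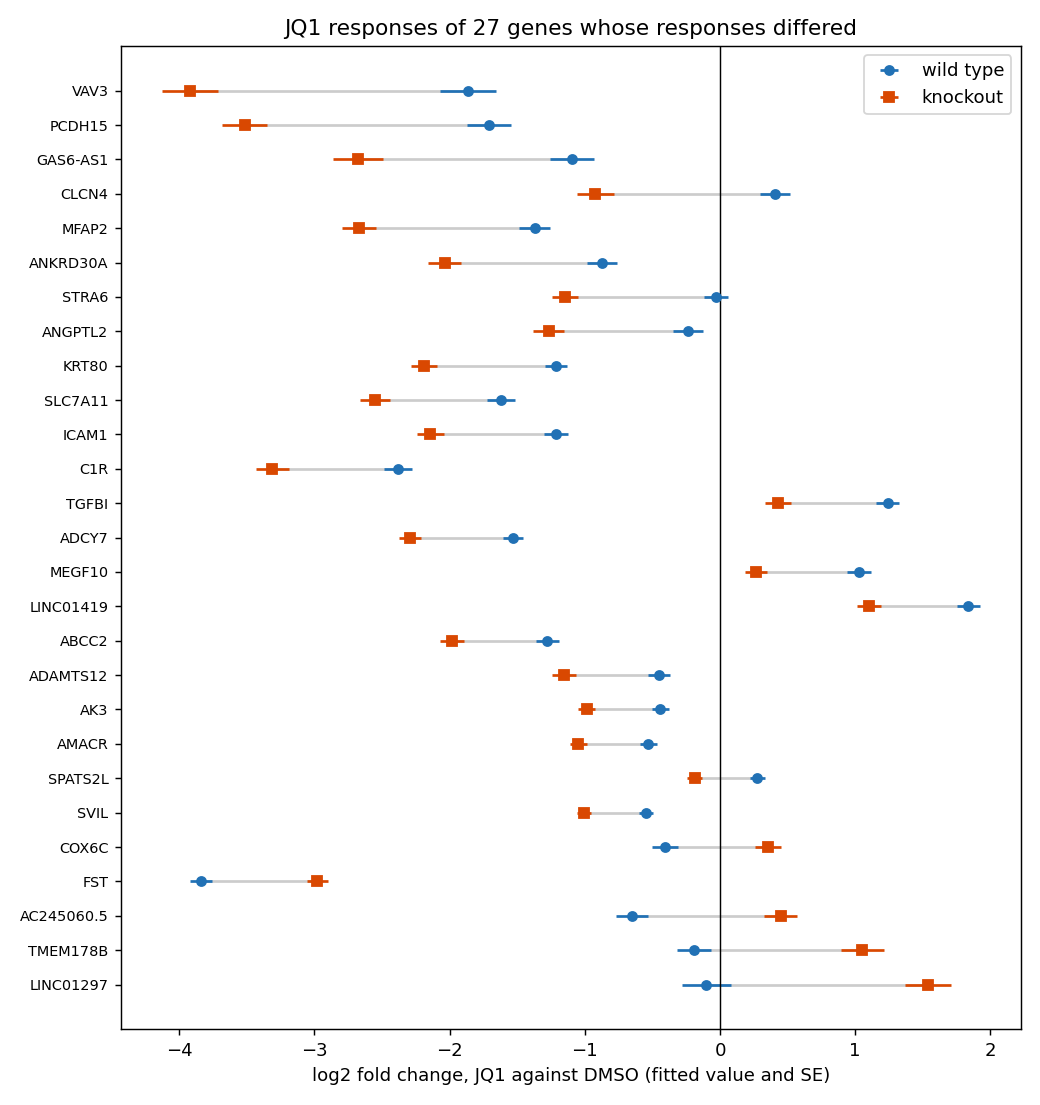
Fitted log2 fold changes with JQ1 (x axis, bars are SE) in wild type (circles) and knockout (squares) for 27 of the 29 genes; AC093525.2 and AC130304.1 are left out because all wild-type JQ1 libraries were at 0. In most rows the knockout square lies left of the wild-type circle, as for VAV3 (-3.92 and -1.87).

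The genes that fell further included matrix and secreted proteins. MFAP2, a protein of elastic microfibrils, was at 26.9, 27.8 and 26.2 CPM in wild-type DMSO and 22.4, 29.2 and 27.7 CPM in knockout DMSO. With JQ1 it was at 10.6, 11.3 and 9.47 CPM in wild type and at 4.07, 3.57 and 4.72 CPM in knockout (difference -1.30, SE 0.17, adjusted p 0.00838). The DMSO groups overlapped and the JQ1 groups did not. ANGPTL2, a secreted angiopoietin-like protein, had a response of -0.24 in wild type (adjusted p 0.109) and fell by 1.27 in knockout (difference -1.03, SE 0.16, adjusted p 0.0208; passed in 6 of 12 fits, highest 0.0718 without knockout DMSO replicate 3). ADAMTS12, a matrix metalloprotease, had responses of -0.45 and -1.16; its difference passed in 4 of 12 fits (highest adjusted p 0.15 without wild-type DMSO replicate 2). In C1R the responses were -2.38 and -3.31, and the adjusted p of the difference reached 0.156 without wild-type DMSO replicate 3.

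Receptors, adhesion molecules and signalling enzymes made up a further group. STRA6, the receptor that takes up retinol from its carrier, was at 57.4, 55.7 and 58.3 CPM in wild-type DMSO and 57.5, 62.3 and 48.1 CPM in wild-type JQ1. It was at 48.8, 56.2 and 53.8 CPM in knockout DMSO and 21.4, 25.4 and 25 CPM in knockout JQ1. The fall thus passed in knockout alone (-1.14, against -0.03 in wild type; difference -1.11, SE 0.13, adjusted p 0.00838). Elsewhere in the retinoid list, TGM2, a transglutaminase induced by retinoic acid, had responses of -0.63 and -1.2 (difference -0.57, SE 0.14, adjusted p 0.213), and the list's median difference was -0.12, or -0.23 without knockout JQ1 replicate 3. ICAM1, the leukocyte adhesion ligand and an NF-kappaB target, fell from 53.1 to 55.4 CPM to 21.2 to 25.4 CPM in wild type and from 34.5 to 40.2 CPM to 7.58 to 9.75 CPM in knockout. Its difference was -0.93 (SE 0.13, adjusted p 0.0149; passed in 9 of 12 fits, highest 0.0579 without wild-type JQ1 replicate 1), while the NF-kappaB list had a median of 0.00, or -0.08 without knockout JQ1 replicate 3. ADCY7, an adenylyl cyclase, had responses of -1.53 and -2.29 and passed in 10 of 12 fits (highest 0.0579 without wild-type JQ1 replicate 1).

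For VAV3 and PCDH15 the knockout began higher and ended at or below the wild-type level. VAV3, a guanine nucleotide exchange factor, was at 3.46, 3.19 and 4.07 CPM in wild-type DMSO, 1.26, 0.742 and 0.917 CPM in wild-type JQ1, 13.8, 11.1 and 13.4 CPM in knockout DMSO and 0.571, 1.05 and 0.886 CPM in knockout JQ1. The JQ1 groups overlapped and the DMSO groups did not (difference -2.06, SE 0.31, adjusted p 0.0182; passed in 9 of 12 fits, highest 0.0615 without wild-type JQ1 replicate 1). PCDH15, a protocadherin of sensory hair-cell links, went from 4.51 to 6.77 CPM to 1.77 to 1.89 CPM in wild type and from 13.6 to 15.6 CPM to 1.14 to 1.33 CPM in knockout (difference -1.81, SE 0.24). The other genes that fell further were GAS6-AS1 (-1.58), ANKRD30A (-1.16), the mitochondrial adenylate kinase AK3 (-0.55), the peroxisomal and mitochondrial racemase AMACR (-0.52) and the actin-binding protein SVIL (-0.46). ANKRD30A passed in 10 of 12 fits, GAS6-AS1 and SVIL in 4 and AK3 and AMACR in 2. Their highest adjusted p by edgeR were 0.0553 for ANKRD30A, 0.0816 for GAS6-AS1, 0.104 for SVIL, 0.142 for AK3 and 0.172 for AMACR. GAS6-AS1 is antisense to GAS6, and its value is uncertain where strand was not used in counting.

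**Figure D5:**
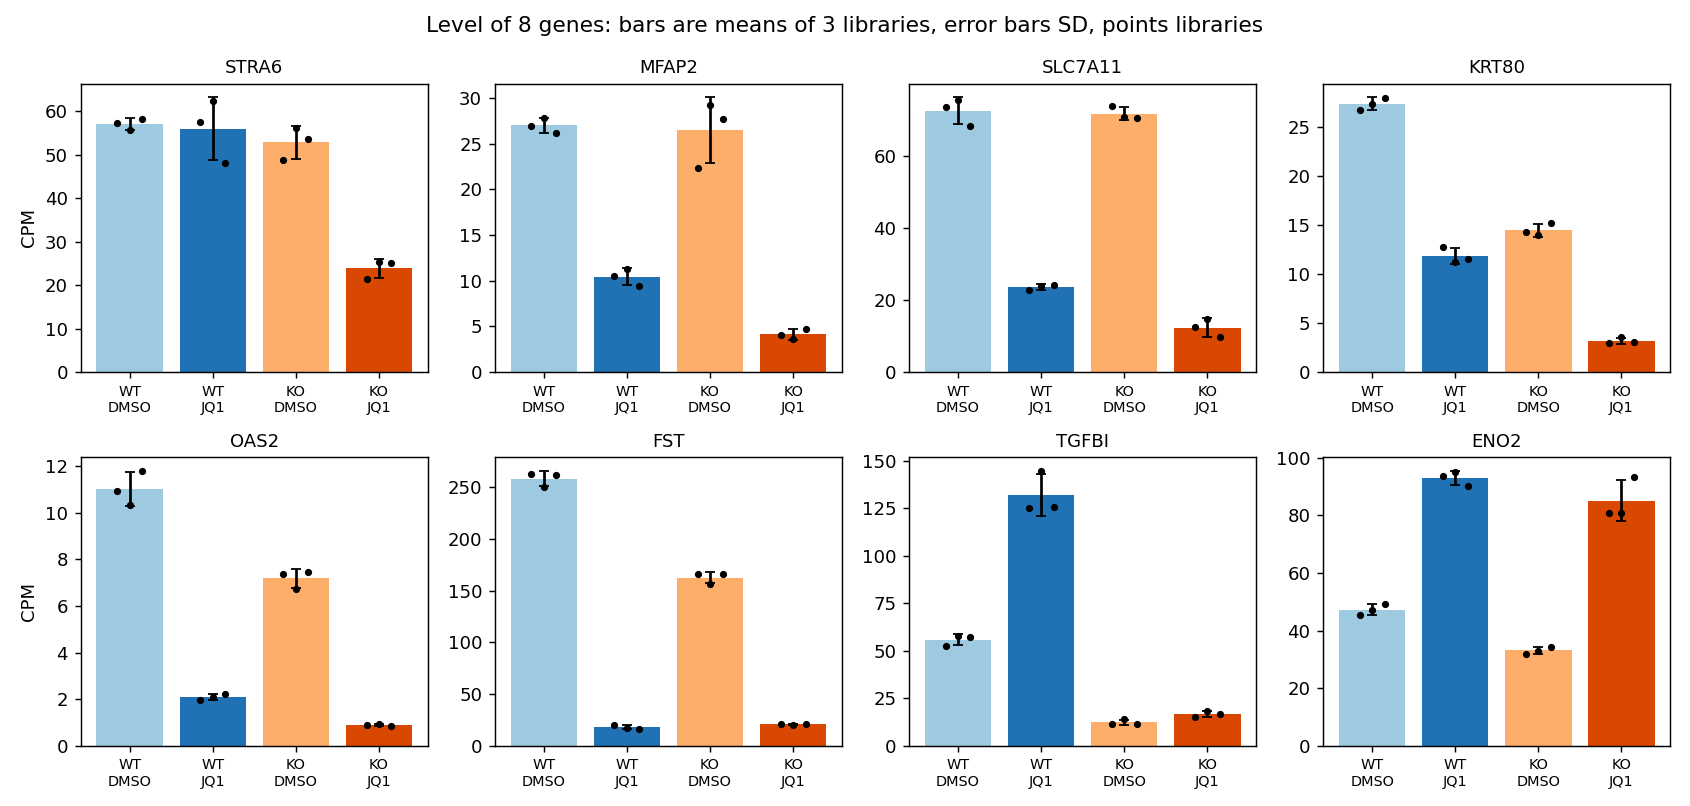
CPM of 8 genes (y axes start at 0) in the 4 groups; bars are means of 3 libraries, error bars SD and points libraries. STRA6, MFAP2 and SLC7A11 were alike in DMSO and lower in knockout than in wild type with JQ1, FST converged on 16.4 to 21.5 CPM in both JQ1 groups, and TGFBI rose mainly in wild type.

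Genes whose rise or fall was smaller in knockout began at another level in knockout without the drug. FST, which encodes the activin antagonist follistatin, was at 263, 250 and 262 CPM in wild-type DMSO and 166, 156 and 166 CPM in knockout DMSO. With JQ1 it was at 20.5, 17.3 and 16.4 CPM in wild type and 20.7, 19.6 and 21.5 CPM in knockout, so the knockout fell from a lower start to about the same level (-3.84 and -2.98; difference 0.86, SE 0.10, adjusted p 0.00838). TGFBI, a matrix protein induced by TGF-beta, rose from 52.6 to 57.6 CPM to 125 to 145 CPM in wild type and from 11.7 to 13.9 CPM to 15 to 18.2 CPM in knockout. Its difference was -0.81 (SE 0.13, adjusted p 0.0208; passed in 5 of 12 fits, highest 0.0735 without wild-type JQ1 replicate 2). MEGF10, an engulfment receptor, rose by 1.03 and by 0.27, from 4.51 to 4.89 CPM in wild-type DMSO and 16.9 to 17.8 CPM in knockout DMSO. LINC01419 rose by 1.84 and by 1.10. The differences of MEGF10 and LINC01419 passed in 4 and 3 of 12 fits, with highest values of 0.103 and 0.110.

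Opposite responses that passed the threshold in both genotypes were found for 12 of the 5475 genes called in both. CLCN4, a chloride-proton exchanger, was at 8.73, 9.49 and 8.96 CPM in wild-type DMSO and 12, 11.7 and 12.4 CPM with JQ1. In knockout it was at 3.81, 3.23 and 3.93 CPM and fell to 2.09, 2.15 and 1.58 CPM (difference -1.33, SE 0.18, adjusted p 0.00838). SPATS2L had responses of 0.28 and -0.19 (difference -0.46, adjusted p 0.0323; passed in 2 of 12 fits, highest 0.154 without wild-type DMSO replicate 3). LAMA4, a laminin chain of vessel basement membranes, rose by 0.17 and fell by 0.19 (difference -0.36, SE 0.07, adjusted p 0.0867).

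The reverse order, a fall in wild type and a rise in knockout, was shown by COX6C, PCSK5 and SNORA63 among the genes with known products. COX6C, a subunit of cytochrome oxidase with processed copies in the genome, was at 12.1, 13.4 and 13.6 CPM in wild-type DMSO and 10.2, 9.54 and 9.67 CPM with JQ1. In knockout it was at 12.4, 10.5 and 10.2 CPM in DMSO and 13.3, 14.5 and 14.6 CPM with JQ1 (difference 0.76, SE 0.13, adjusted p 0.0395; passed in 3 of 12 fits, highest 0.154 without wild-type DMSO replicate 3). The nuclear oxidative phosphorylation list to which it belongs had a median difference of 0.00. PCSK5, a proprotein convertase, fell by 0.34 and rose by 0.35 (difference 0.69, SE 0.13, adjusted p 0.0687). The noncoding gene AC245060.5 fell by 0.65 and rose by 0.45 (difference 1.10, SE 0.17; passed in 8 of 12 fits, highest adjusted p 0.0599 without wild-type JQ1 replicate 1). AC092326.2 and AC136944.1 did likewise at up to 1.51 CPM.

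In the 3 remaining genes with opposite calls a group was at 0. AC093525.2 had 10, 7 and 36 counts in wild-type DMSO and 0 in each wild-type JQ1 library, against 8, 9 and 7 in knockout DMSO and 18, 15 and 27 in knockout JQ1. AC130304.1 had 17, 28 and 69 counts, then 0 in each wild-type JQ1 library; in knockout it had 0, 0 and 1 in DMSO and 32, 0 and 25 with JQ1, so its knockout replicates disagreed. SMIM25 had 0 counts in each knockout DMSO library and 9, 14 and 9 in knockout JQ1, against 9, 19 and 25 and then 0, 0 and 9 in wild type. Fitted fold changes of these 3 depend on the prior count and are not given. LINC01297 was at 27 to 37.3 CPM in all wild-type libraries and at 127 to 134 CPM in knockout DMSO. It was at 491, 381 and 259 CPM in knockout JQ1, a response of 1.54 in knockout and -0.10 in wild type (difference 1.64, SE 0.25, adjusted p 0.0191; passed in 6 of 12 fits, highest 0.0816 without knockout DMSO replicate 3). TMEM178B had responses of -0.19 in wild type and 1.05 in knockout, from 1.02 to 1.25 CPM in knockout DMSO (passed in 3 of 12 fits, highest 0.110 without knockout DMSO replicate 3).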

How the data were processed

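RNA was depleted of ribosomal RNA and made into directional libraries, per the labels' protocols. Estimated counts by gene symbol, with fractions, were deposited by the authors; kallisto, Trim Galore, cutadapt and DESeq2 and the build GRCh38.p10 are named in the submitters' processing notes, without roles. Estimated counts were rounded, the change this unit required, and filtered with edgeR's filterByExpr over the 4 groups (21698 of 56609 symbols kept; 14228 were at 0 in all libraries). A normalized table was not used here. Libraries were scaled by TMM and fitted with 1 term per group over all 12 libraries (edgeR 4.0.16 quasi-likelihood, limma 3.58.1, R 4.3.3); the SE is the log2 difference divided by the square root of F. Benjamini-Hochberg adjustment ran over the tested genes. CPM refer to the TMM-scaled library, and scores used a prior count of 2. DESeq2 1.42.0 served as an alternative test. The fit was tested on simulated data.

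The members of the lists and the rules were chosen with earlier results of these data known, so no list is independent evidence. Named were MAPKAPK2, the 29 genes past the threshold, up to 6 members with the smallest p per list meeting the rule and up to 3 from other lists, and genes called in both responses with opposite signs; CMPK2, OCLN, SP100, IFI44, MX2, IFIH1, FTL, TKT, HERC6, EIF2AK2, ISG20 and AKR1C2 lie outside this rule and were chosen after their values were seen, and SOX10, MITF, PMEL, TYR, KRT1 and KRT14 were given as cell type markers. Wild-type and knockout responses share no library, whereas the difference shares libraries with each of them. Promoters came from RefSeq by symbol.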

Additional observations from a re-analysis of the deposited data

Results flagged for a closer look

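These 29 genes were singled out because the test of the difference between the JQ1 responses of the 2 genotypes passed an adjusted p of 0.05 (edgeR quasi-likelihood, Benjamini-Hochberg). The genes whose fall was larger in knockout were PCDH15, MFAP2, STRA6 and KRT80 (adjusted p 0.00838 each), ANKRD30A, ICAM1 and ADCY7 (0.0149 each), VAV3 (0.0182), GAS6-AS1, ANGPTL2 and SLC7A11 (0.0208 each), SVIL (0.0229), AK3 (0.023), ADAMTS12 (0.0306), ABCC2 and AMACR (0.0323 each) and C1R (0.0442). FST fell less in knockout (0.00838). TGFBI and MEGF10 (0.0208 each) and LINC01419 (0.023) rose less. CLCN4 (0.00838) and SPATS2L (0.0323) rose in wild type and fell in knockout. LINC01297 (0.0191), AC245060.5 and AC093525.2 (0.0208 each), TMEM178B (0.0239), AC130304.1 (0.0323) and COX6C (0.0395) had a negative fitted response in wild type and a positive one in knockout. The 6 that passed with every library left out in turn were FST, PCDH15, MFAP2, STRA6, KRT80 and CLCN4, whose adjusted p was then at most 0.0490.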

How the results depend on the processing

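The 29 genes became 139 with DESeq2 and 236 with no filter on low counts, and lay between 8 and 88 with a library left out. More positive differences were 33, 85 and 2 to 22 in the same settings, and more negative ones 106, 151 and 6 to 66. DESeq2 kept 27 of the 29. Genes called in both responses with opposite signs numbered 48 with no filter. The share of responsive genes with the larger response in knockout was 56.06% with no filter, 58.87% with at least 5 CPM and 52.45% to 61.49% with a library left out. Median differences with a library left out were -0.3298 to -0.2195 for keratins and desmosomes, -0.2131 to -0.133 for prostaglandin genes, -0.2668 to -0.1334 for the HOX cluster, -0.1966 to -0.1403 for interferon-stimulated genes and 0.03806 to 0.3272 for chemokines. With no filter they were -0.2327 for prostaglandin genes and 0.04674 for chemokines; with at least 5 CPM they were -0.1175 for interferon-stimulated genes and -0.41 for chemokines. These 2 settings change which members are tested; the cause of the other shifts was not tested. Scaling by library totals alone moved the median response of all genes to -0.16 in wild type and -0.12 in knockout, but their median difference was 0.01. Over 58 named genes and 18 alternatives, 827 of 1021 fits kept direction and call, 185 lost the call, 9 gained it and 0 reversed.

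Replicate numbers did not pair the libraries: 4 of 18 correlations between same-numbered libraries were over 0.1 (range -0.49 to 0.37), and 2 of 12 libraries correlated best with their own number. With the replicate block 21 genes passed, 5 more positive and 16 more negative, and 20 of the 29 were among them.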
